A study of Mus musculus with 8 samples.

Results

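The 9 genes described here, Trp53inp1, Ccng1, Cdkn1a, Mdm2, Perp, Zmat3, Polk, Ei24 and Aen, are known targets of the transcription factor p53. They were chosen by symbol among the 23278 entries of each table, and all 9 were present in all 4 tables. RNA was sequenced from CD4+CD8+ double-positive (DP) thymocytes of C57BL/6 mice, sorted as GFP+ cells, in 4 groups of 2 libraries. DP1 cells had low surface CD5 and low TCRβ, and DP2 cells had high CD5 and intermediate TCRβ, as thymocytes have once their T cell receptor has begun to signal. The WT groups came from Hdac3+/+ animals and the Hdac3KO groups from Hdac3F/F animals with LCK-Cre, a recombinase made in developing T cells. Whether the WT animals also carried Cre or what their age was is not given in the sources used here. The 2 libraries of a group were made from RNA pools, and nothing says that they came from separate animals, so the p-values measure only a spread between libraries that may be technical.

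p53 is held at low levels by the ubiquitin ligase Mdm2 and accumulates when DNA is damaged. It then switches on genes that stop the cell cycle, that repair or tolerate damage, that kill the cell, and that restrain p53 again. DP thymocytes cut their own DNA with the Rag recombinase as they rearrange the T cell receptor α locus, and they are known to die readily through p53 after irradiation. Hdac3 removes acetyl groups from histones as part of corepressor complexes built on NCoR or SMRT. The comparisons asked which transcripts differ without Hdac3 at each stage, and which change from DP1 to DP2.

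The sequence that p53 binds is a pair of 10-base half-sites. RefSeq promoter windows (GRCm38.p6, 250 bases before to 50 after an annotated start) were available here for 6 of the 9 genes, Ccng1, Cdkn1a, Mdm2, Polk, Ei24 and Aen, and not used for Trp53inp1, Perp and Zmat3. Each window was searched for the pair closest to the p53 consensus, without a spacer between the half-sites. The consensus pair reads the same on both strands. The 4 pairs closest to it are printed because they are the DNA through which these genes could be read as p53 targets near their starts. Each is on the strand of its gene with the 20 bases of the pair in capitals and 5 flanking bases on each side.
Cdkn1a: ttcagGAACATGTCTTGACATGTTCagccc
Ccng1: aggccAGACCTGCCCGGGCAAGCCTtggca
Aen: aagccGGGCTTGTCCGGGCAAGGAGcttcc
Polk: ggttgCATGTAGCTTGAACTAGCCTcaaac
The Cdkn1a pair (chr17:29090928-29090947, plus strand) and the Ccng1 pair (chr11:40755462-40755481, minus strand) each had 1 mismatch to the consensus, which 0.0883% of the 32851 windows matched as well. Both lie upstream of an annotated start, at -51 to -32 in Cdkn1a (in 1 of its 2 windows) and at -195 to -176 in Ccng1. The Aen pair (chr7:78895937-78895956, plus strand), in an untranslated part of an Aen exon, and the Polk pair (chr13:96519409-96519428, minus strand), within the Polk gene but in no exon, before an internal annotated start, had 3 mismatches each. In both of these all 3 fell in one half-site, and 6.29% of windows matched as well. The best pairs of Mdm2 and Ei24 had 5 mismatches, as good as in 76.6% of windows. Each of these 2 genes had only 1 window, and sites outside it, such as within introns, were not searched. A match describes the letters and does not show binding.

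All expression values are the authors' FPKM, fragments counted per transcript length and library size, with 1 value per gene and group. The spread between libraries and the depth behind a value are therefore unknown. Genes with a deposited q-value (an adjusted p-value) of 0.05 or less are called changed, and the standard error (SE) of each log2 fold change was worked back from the deposited p-value. Hdac3 itself fell from 38.1 to 11.7 FPKM in DP1 (q = 0.000879), and the DP2 cells had 29.7 in WT and 15.4 in Hdac3KO (q = 0.0131) by the authors' deposited tables. Sex differed with genotype at both stages, since Xist was at 0.0945 and 208 FPKM in WT and Hdac3KO DP1 and at 0.243 and 139 in DP2 by the authors' deposited tables. Genotype and sex cannot be told apart here, although all 9 genes are autosomal. The 10 DP thymocyte markers were present in every group. Summed markers of B cells (4 genes) were at 0.791 to 3.10 FPKM, of NK and γδ T cells (4 found) at 0.876 to 3.07 and of thymic epithelium (6) at 6.32 to 12.7 in the genotype tables the authors deposited. The summed myeloid markers (6) were higher in Hdac3KO (6.40 and 13.6 FPKM for DP1, 8.60 and 22.3 for DP2), chiefly through Itgam, at 2.40 and 9.58 for DP1 and 1.60 and 15.7 for DP2 by the authors' deposited tables. Of the other 5, Cd68 was at 2.98 to 3.61 FPKM in the 4 groups, Lyz2 at 0.122 to 2.80, and Cd14, Csf1r and Emr1 below 0.6 by the authors' deposited tables, and the part of myeloid cells in the results was not tested. The median gene lay at -0.11 on the log2 scale for genotype in DP1, 0.12 for genotype in DP2, -0.33 for stage in WT and -0.01 for stage in Hdac3KO.

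**Figure D1:**
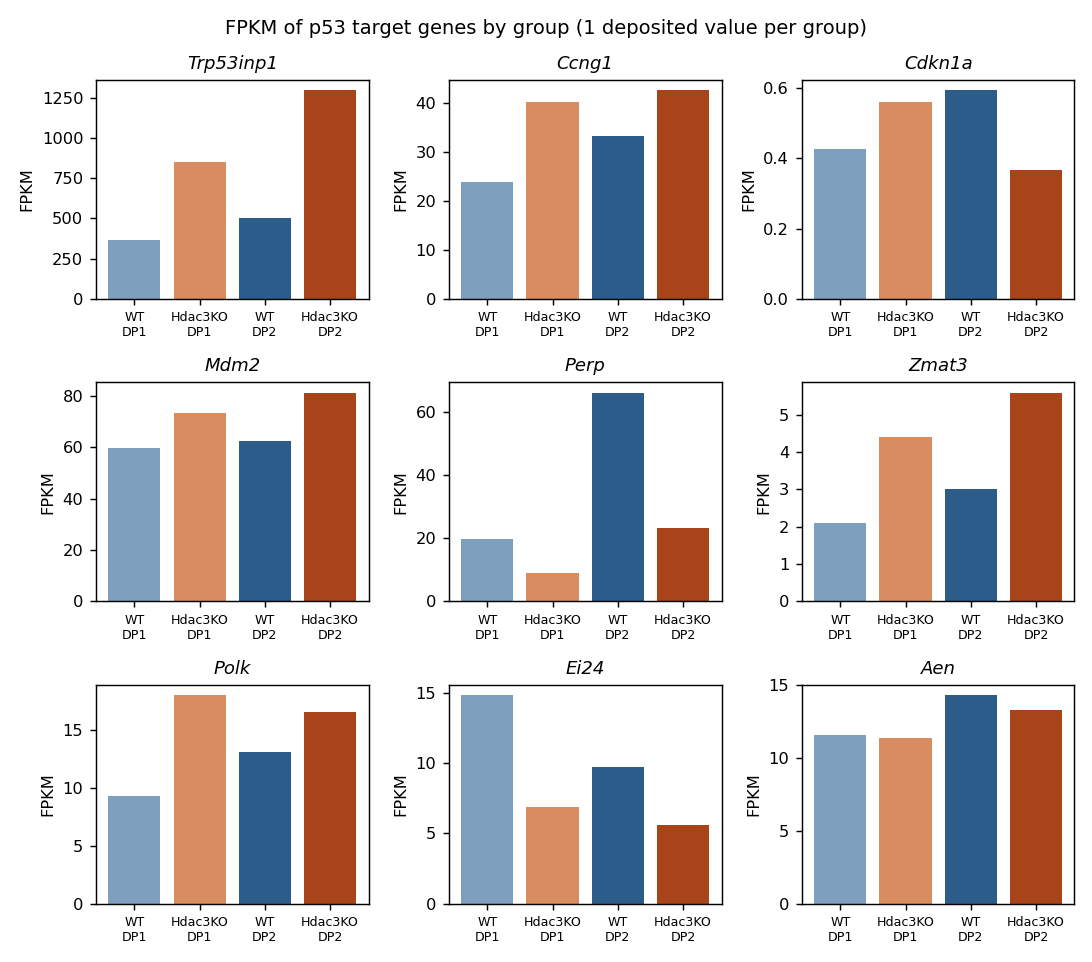
Deposited FPKM (linear axes starting at 0, a separate scale for each gene) of the 9 p53 target genes in the WT and Hdac3KO groups of each stage, as bars with no error because each group has 1 value. Trp53inp1 and Zmat3 are higher in Hdac3KO at both stages, Perp is lower at both, and Cdkn1a stays below 0.6 FPKM in every group.

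Loss of Hdac3 in DP1 cells came with higher Trp53inp1, Zmat3, Polk and Ccng1 and with lower Perp and Ei24, while Mdm2 and Aen were not called and Cdkn1a was not tested. The members thus did not move one way. Of the 8 tested, 4 rose and 2 fell, against 10.7% and 12.9% of all 10511 genes tested (23.6% called in either direction), and the genes were chosen with results of these data known. Their median log2 change was 0.52 and that of all tested genes -0.10.

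Trp53inp1 encodes a stress protein of autophagy and cell death that also promotes p53 activity. It stood at 367 FPKM in WT DP1 and 853 in Hdac3KO DP1 by the authors' deposited table, with 1.22 ± 0.30 (SE) as its log2 change (q = 0.000879). This is a 2.32-fold rise of a gene at the 99.5th percentile of the levels of all tested genes. Zmat3, which encodes a zinc finger protein that binds RNA, was far less abundant. It rose from 2.11 to 4.39 FPKM by the authors' deposited table, or 1.06 ± 0.28 on the log2 scale (q = 0.00255).

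Polk encodes DNA polymerase κ, which copies past damaged bases. It nearly doubled, from 9.35 to 18.0 FPKM by the authors' deposited table (0.95 ± 0.29, q = 0.00942). Ccng1 encodes cyclin G1, which acts with Mdm2 to restrain p53. It rose from 23.8 to 40.3 FPKM by the authors' deposited table (0.76 ± 0.25, q = 0.0170), the smallest of the 4 rises, and fell short of a q of 0.01.

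Perp, a membrane protein gene of p53-driven death that also serves cell junctions in epithelia, fell from 19.7 to 8.81 FPKM by the authors' deposited table (-1.16 ± 0.32, q = 0.00352). Ei24, which encodes a protein of the endoplasmic reticulum linked to p53-driven death and to autophagy, fell from 14.8 to 6.90 FPKM by the authors' deposited table (-1.10 ± 0.30, q = 0.00303). In these bulk samples, fewer cells that make a transcript and less of it per cell cannot be told apart. Perp is also made by epithelia, and the 6 epithelial markers did not move together: Epcam was at 2.58 and 1.14 FPKM (q = 0.0503), Psmb11 rose from 3.21 to 7.30 (q = 0.00154), and Krt5, Foxn1, Krt8 and Prss16 were at most 0.402 in either group by the authors' deposited table. Summed markers of double-negative thymocytes were at 52.7 and 30.2 FPKM by the authors' deposited table. Of these, Hhex was lower (47.8 to 8.53) and Il2ra higher (3.49 to 19.6) in Hdac3KO. Kit, untested, was at 0.504 and 1.45, and Gata2, Bcl11a and Lyl1 were at most 0.610 in either group. Summed markers of regulatory T cells were at 19.6 and 11.1 FPKM, with Ikzf2 lower (17.5 to 8.404) by the authors' deposited table. Foxp3 (0.191 and 0.662) and Ctla4 (1.91 and 2.03), both untested, lay higher in Hdac3KO by the authors' deposited table. The part of these cell types in the changes of Perp and Ei24 was not tested.

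Mdm2, the gene that p53 uses to limit itself, was at 59.9 and 73.2 FPKM by the authors' deposited table (0.29 ± 0.25, q = 0.418). Aen encodes a nuclease of apoptosis and was nearly level, at 11.6 and 11.4 FPKM by the authors' deposited table (-0.02 ± 0.28, q = 0.963). Relative to the median gene its value turned to 0.09. Cdkn1a encodes p21, the inhibitor of cyclin-dependent kinases through which p53 stops the cell cycle. Its level was 0.426 and 0.560 FPKM by the authors' deposited table, too low for the authors' test. The Cdkn1a pair shown above lies upstream of an annotated start of this gene, which had 2 windows.

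**Figure D2:**
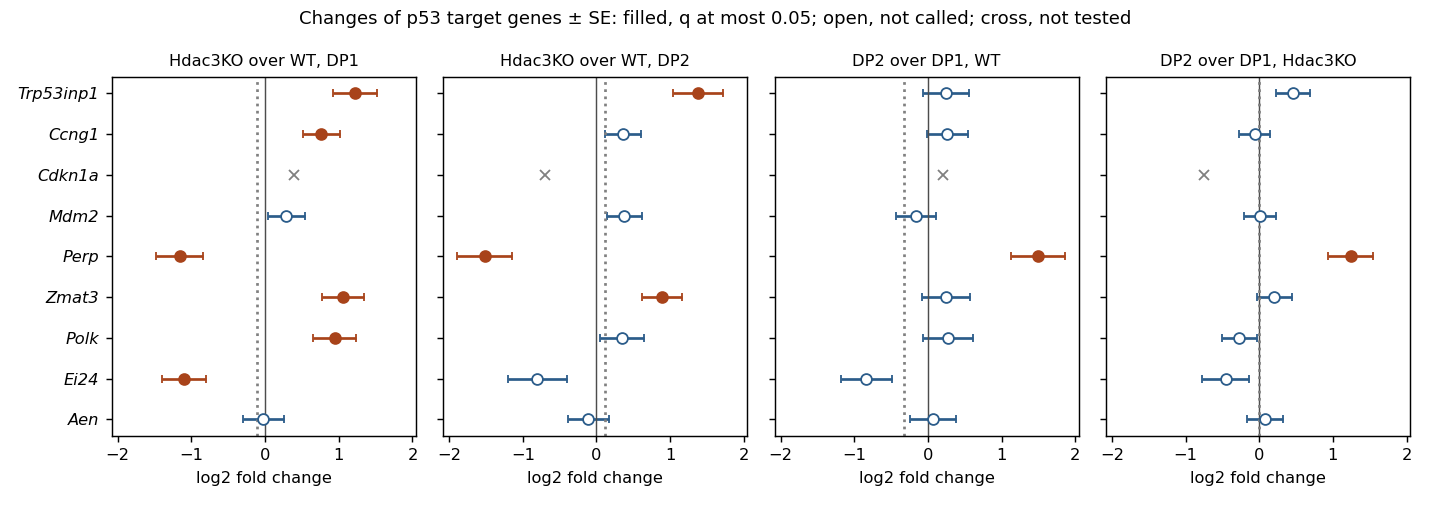
Log2 fold changes of the 9 genes with their SE (horizontal bars) in the 4 comparisons, with filled points called at a q of 0.05, open points not called and crosses not tested, and a dotted line at the median gene. The genotype comparison in DP1 has 6 filled points and that in DP2 has 3, and in each stage comparison the 1 filled point is Perp.

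Fold changes in DP1 followed transcript length over all genes, and the members that rose have longer transcripts than those that fell. The longest annotated transcripts (GENCODE M21, mm10) of the 4 that rose were 3512 (Ccng1), 4225 (Polk), 5432 (Trp53inp1) and 7797 bases (Zmat3). Those of Perp and Ei24 were 1952 and 2309 bases. The fitted trend at these lengths ran from -0.39 for Perp to 0.37 for Zmat3. With the trend removed 3 members remained called and all 3 were higher: Trp53inp1 (1.02, q = 0.00979), Polk (0.94, q = 0.0154) and Ccng1 (0.86, q = 0.01). Zmat3 (0.69, q = 0.0809), Perp (-0.77, q = 0.0856) and Ei24 (-0.79, q = 0.0563) kept their direction and were no longer called. In DP2 the trend ran only from 0.09 for Perp to 0.13 for Trp53inp1. For stage in WT it ran from -0.56 for Perp to 0.06 for Zmat3, and for stage in Hdac3KO from 0.04 for Perp to -0.10 for Zmat3. The steeper trends were thus in the comparisons that include WT DP1, and their source was not tested.

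**Figure D3:**
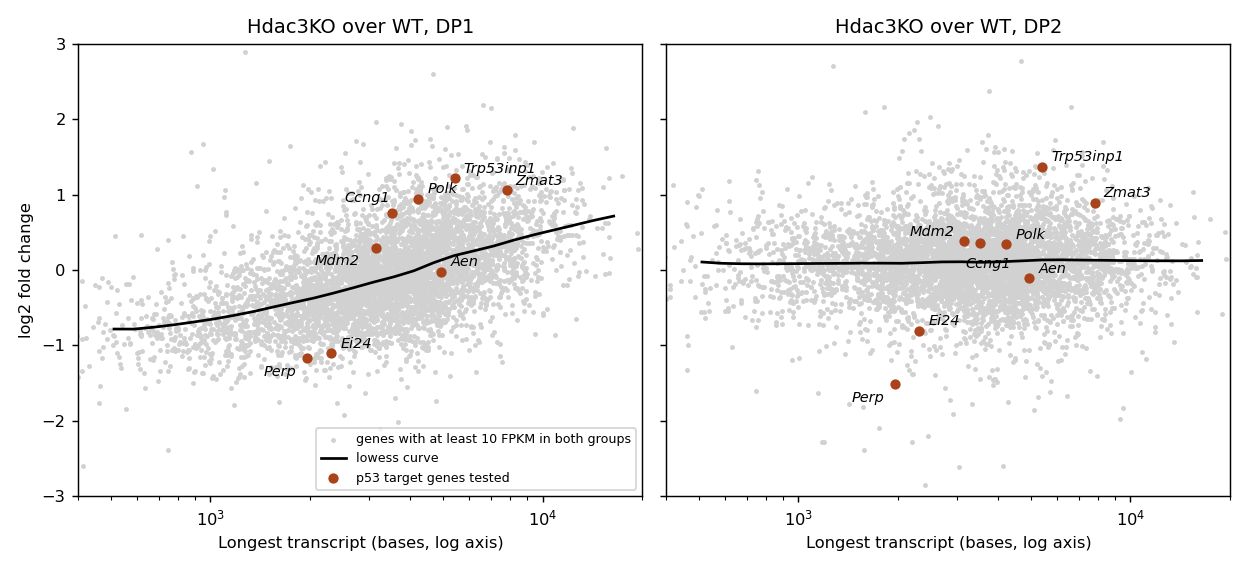
Log2 fold change between Hdac3KO and WT against the longest transcript of each gene (log axis, bases) in DP1 and in DP2, for genes at 10 FPKM or more in each group (grey), the lowess curve over them (line) and the 8 tested p53 target genes (filled). The curve climbs with length in DP1 and is nearly flat in DP2, and Perp at 1952 bases and Zmat3 at 7797 bases lie towards its ends.

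In DP2 cells the same contrast gave fewer calls: Trp53inp1 and Zmat3 were again higher without Hdac3 and Perp again lower. Of the 8 tested members 2 rose and 1 fell, against 6.44% and 4.32% of all 10674 genes tested (10.8% in either direction). The median log2 change of the members was 0.35 and that of all tested genes 0.10. Trp53inp1 stood at 501 FPKM for WT and 1297 for Hdac3KO by the authors' deposited table (1.37 ± 0.34, q = 0.00134), a 2.59-fold rise. Zmat3 rose from 3.01 to 5.59 FPKM by the authors' deposited table (0.89 ± 0.27, q = 0.0147). Its call held with the length trend removed (q = 0.0479).

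Perp showed the largest fall among the members, from 66.0 to 23.1 FPKM by the authors' deposited table (-1.52 ± 0.37, q = 0.00134). Of the epithelial markers, Epcam was at 1.19 and 2.76 FPKM (q = 0.132) and Psmb11 at 6.20 and 9.20 (q = 0.208) by the authors' deposited table. Summed markers of double-negative thymocytes were at 226 and 50.04 FPKM, where Hhex fell from 221 to 21.3 and Il2ra rose from 4.41 to 26.3. Kit, untested, was at 0.414 and 1.45, and Gata2, Bcl11a and Lyl1 were at most 0.722 in either group, by the authors' deposited table. The regulatory T cell sum was at 97.9 and 25.98 FPKM, where Ikzf2 fell from 94.8 to 24.002 by the authors' deposited table. Foxp3 was at 0.693 and 0.671 and Ctla4 at 2.415 and 1.30, both untested, by the authors' deposited table. The part of these markers in the Perp change was not tested. Ei24 was at 9.70 and 5.56 FPKM by the authors' deposited table (-0.80 ± 0.40, q = 0.195) and was not called. Ccng1 (33.2 and 42.6 FPKM, q = 0.398) and Polk (13.1 and 16.6 FPKM, q = 0.533) lay higher in Hdac3KO without passing the test by the authors' deposited table. Mdm2 was at 62.4 and 81.3 FPKM (q = 0.332) and Aen at 14.3 and 13.3 (q = 0.869) by the authors' deposited table. Cdkn1a, again untested, was at 0.594 and 0.367 FPKM by the authors' deposited table. At this stage the DP markers Cd8b1, Rag2 and Cd4 were also called higher in Hdac3KO, which they were not in DP1, and their part in these changes was not tested.

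Whether a member responded differently at the 2 stages was tested directly, as the genotype change in DP2 minus that in DP1. None of the 8 tested members passed (normal test of the difference, q by Benjamini-Hochberg over 10144 genes), where 2.08% of all genes were called. At an unadjusted p under 0.05 there were 0 of the 8 members and 1890 of the 10144 genes. Polk had the largest difference, -0.60 ± 0.42 (q = 0.435), with a 95% interval of -1.42 to 0.21. The difference for Ccng1 was -0.40 ± 0.35 (q = 0.560) with an interval of -1.09 to 0.29. These intervals include 0 and also a loss of the whole DP1 change, so the calls in DP1 alone do not show a response particular to DP1. The difference was 0.16 ± 0.45 for Trp53inp1 (q = 0.892, interval -0.73 to 1.04). It was -0.36 ± 0.49 for Perp (q = 0.744, interval -1.32 to 0.61) and -0.17 ± 0.39 for Zmat3 (q = 0.861, interval -0.94 to 0.60).

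**Figure D4:**
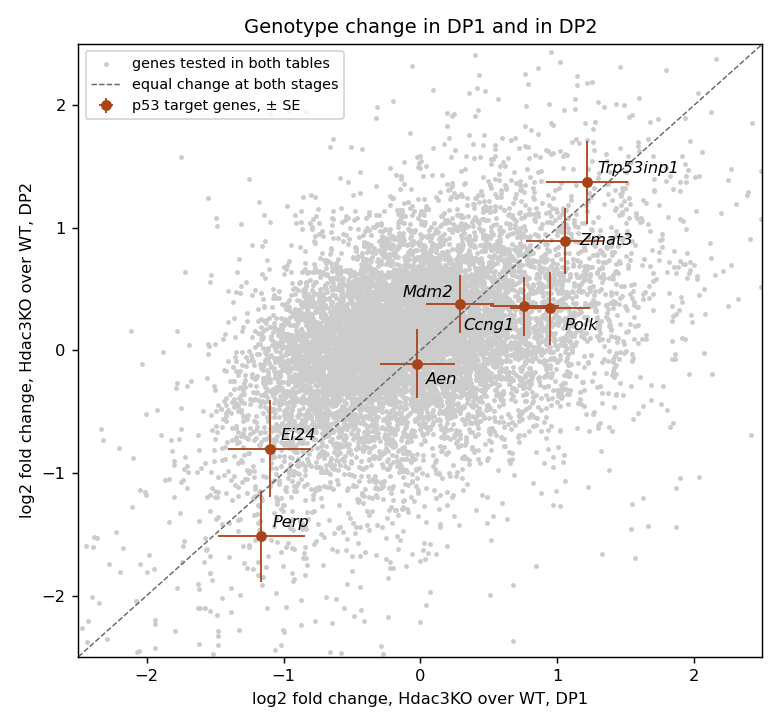
Log2 fold change between Hdac3KO and WT in DP1 (horizontal) and in DP2 (vertical) for the 8 tested p53 target genes with their SE, over all genes tested in both tables (grey), with a dashed line where both changes are equal. Trp53inp1 and Zmat3 lie at the upper right and Perp and Ei24 at the lower left, and no member passed the test of the difference between stages.

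From DP1 to DP2, Perp rose in both genotypes and no other member was called. In WT cells it went from 22.4 to 62.9 FPKM by the authors' deposited table (1.49 ± 0.37, q = 0.000835), and 1.82 relative to the median gene. With the length trend removed, Perp rose by 2.05 in WT (q = 1.56e-05). In Hdac3KO cells it went from 8.83 to 20.9 FPKM by the authors' deposited table (1.24 ± 0.31, q = 0.00151). The double-negative marker sum also rose, from 60.4 to 213 FPKM in WT and from 30.1 to 45.3 in Hdac3KO, by the authors' deposited tables. Hhex, called in both, went from 54.8 to 208 in WT and 8.51 to 19.2 in Hdac3KO. Il2ra, called in neither, was at 3.97 and 4.22 in WT and 19.5 and 23.9 in Hdac3KO. Kit, untested, was at 0.573 and 0.398 in WT and 1.45 and 1.31 in Hdac3KO. Gata2, Bcl11a and Lyl1 were at most 0.697 in any group by the authors' deposited tables. The regulatory T cell sum rose too, from 21.98 to 95.3 FPKM in WT and 11.2 to 23.6 in Hdac3KO, by the authors' deposited tables. Ikzf2, called in both, went from 19.6 to 92.3 in WT and 8.47 to 21.8 in Hdac3KO. Foxp3, untested, was at 0.216 and 0.661 in WT and 0.660 and 0.608 in Hdac3KO. Ctla4, also untested, was at 2.16 and 2.36 in WT and 2.06 and 1.18 in Hdac3KO by the authors' deposited tables. The part of all these markers in the Perp change was not tested. One of 8 tested members was therefore called higher in each genotype and 0 lower, against 5.56% higher and 16.8% lower of 10851 genes in WT (22.3% in all) and 1.78% and 4.65% of 10231 in Hdac3KO (6.43% in all). Ei24 came nearest among the others, at 16.8 and 9.39 FPKM in WT by the authors' deposited table (-0.84 ± 0.34, q = 0.0624) and -0.51 relative to the median gene. With the length trend removed its WT change was -0.35 (q = 0.576). Trp53inp1 was at 412 and 490 FPKM in WT (q = 0.613) and at 861 and 1180 in Hdac3KO (q = 0.315) by the authors' deposited tables. Mdm2 was at 67.7 and 60.5 FPKM in WT (q = 0.713) by the authors' deposited table, a value of -0.16 that turned to 0.16 relative to the median gene, and at 73.4 and 73.9 in Hdac3KO (q = 0.993).

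The order of the groups was the same for Trp53inp1 and Zmat3 in the genotype tables and in the stage tables, which were scaled separately: Hdac3KO DP2 highest, then Hdac3KO DP1, WT DP2 and WT DP1. By the test the genotypes differed at each stage, neither genotype was called between stages, and Hdac3KO DP1 was not compared with WT DP2. Polk had Hdac3KO DP1 highest and WT DP1 lowest, with the DP2 groups between. Ei24 ran from WT DP1 through WT DP2 and Hdac3KO DP1 to Hdac3KO DP2. Perp was highest in WT DP2 and lowest in Hdac3KO DP1, and the order of Hdac3KO DP2 and WT DP1 between them changed with the table. For Ccng1, Mdm2 and Aen the order also changed with the table, and for Cdkn1a every group was under 0.6 FPKM. Over the 4 log2 changes, Ccng1 and Polk were the closest pair among the 8 tested members (Euclidean distance 0.28), followed by Trp53inp1 and Zmat3 (0.56), and Trp53inp1 and Perp were the farthest apart (4.02). Among 7304 genes with at least 5 FPKM in every group, Herc3 (0.18) and Gsn (0.27) were nearest to Trp53inp1 and Rab13 (0.38) and Clec2i (0.39) to Perp. Midn (0.13) and Etv3 (0.14) were nearest to Zmat3, Arid4a (0.04) and Kat2b (0.05) to Ccng1, Pafah1b1 (0.06) and Ppp1r12a (0.09) to Polk, and Txnl1 (0.14) and Cdk4 (0.20) to Ei24. These distances describe 4 groups and carry no test.

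Of 19 other p53 targets of arrest and repair tested in DP1, 0 were higher and 3 lower without Hdac3, with a median of -0.09, beside 10.7% higher and 12.9% lower of all tested genes. Psrc1, a gene of the mitotic spindle, fell from 8.01 to 2.82 FPKM by the authors' deposited table (-1.50 ± 0.37, q = 0.000879). Polh, the polymerase η gene that like Polk serves bypass of DNA damage, fell from 26.8 to 15.1 FPKM (-0.83 ± 0.26, q = 0.01) where Polk rose, by the authors' deposited table. Gtse1, which encodes an inhibitor of p53 active in mitosis, fell from 14.6 to 8.23 FPKM by the authors' deposited table (q = 0.0109), a call that was lost once the length trend was removed (q = 0.104). In DP2, 1 of 20 was higher and 2 lower (median 0.16), beside 6.44% and 4.32% of all tested genes. Btg2, an antiproliferative gene, rose from 146 to 313 FPKM by the authors' deposited table (1.10 ± 0.27, q = 0.00134). The polo-like kinase gene Plk3 fell from 4.06 to 1.58 FPKM (q = 0.0438) and Ckap2, a gene of the spindle, to 10.1 from 20.97 (q = 0.0467) by the authors' deposited table.

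Death genes under p53 went both ways in DP1, where 1 of 7 tested rose and 3 fell (median 0.19). Of all genes tested there, 10.7% were higher and 12.9% lower. Tnfrsf10b, the TRAIL death receptor, rose from 2.07 to 7.96 FPKM by the authors' deposited table (1.95 ± 0.48, q = 0.000879), a larger log2 change than that of any member. The death genes Siva1 (140 to 53.9 FPKM), Bid (19.4 to 10.1) and Bax (24.1 to 13.9) fell by the authors' deposited table, and with the length trend removed these 3 calls ended (q = 0.0842, 0.0977 and 0.772). In DP2 the only call among 7 was Bbc3, beside 10.8% of all tested genes called. Bbc3 encodes the p53-induced killer PUMA. It rose from 6.86 to 14.4 FPKM by the authors' deposited table (1.07 ± 0.31, q = 0.0108), and the median was 0.45. Fas, a death receptor gene, lay higher in Hdac3KO at both stages without passing (67.0 and 96.3 FPKM in DP1, 71.0 and 115 in DP2, q = 0.171 and 0.151) by the authors' deposited tables, and with the length trend removed it was called in DP1 (q = 0.00862). Fas was chosen after its values were seen.

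The gene of p53 itself, Trp53, was not called. It was at 32.7 and 21.5 FPKM in WT and Hdac3KO DP1 (-0.60, q = 0.0680) and at 32.4 and 32.3 in DP2 (q = 0.994) by the authors' deposited tables. Among 18 tested genes of the p53 family and its regulators, 5 were higher and 1 lower in Hdac3KO DP1 (median 0.47). Of all genes tested in DP1, 10.7% were higher and 12.9% lower. In DP2, 0 of 17 were called (median -0.01) by Cuffdiff's q in the authors' deposited table, beside 10.8% of all tested genes. Of these 17, 2 had an unadjusted p under 0.05. Mdm4, the relative of Mdm2 that masks p53, rose from 55.4 to 137 FPKM by the authors' deposited table (1.30 ± 0.32, q = 0.000879) where Mdm2 was not called. Atr, a kinase gene of the replication stress checkpoint, rose from 7.76 to 15.9 FPKM (1.04 ± 0.29, q = 0.00393), and Sirt1, a deacetylase that acts on p53, from 12.4 to 23.3 (0.91 ± 0.26, q = 0.00518), by the authors' deposited table. The checkpoint kinase gene Chek1 fell from 22.9 to 12.1 FPKM by the authors' deposited table (-0.92 ± 0.30, q = 0.0150). Crebbp and Prkdc were also called higher. Relative to the median gene 8 were higher and 1 lower. Removing the length trend left 2 of 17 (Mdm4 and Sirt1) higher and 1 (Chek1) lower.

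Cyclins, their kinases and Rb proteins, listed together with Pcna, a gene of DNA replication, had more members lower than higher at both stages. Cdkn1a, whose product p21 acts on this machinery, stayed below 0.6 FPKM, and its part in these changes was not tested. In DP1 5 of 14 were lower and 1 higher (median -0.33), beside 12.9% lower and 10.7% higher of all tested genes. In DP2 6 of 14 were lower and 1 higher (median -0.72), beside 4.32% lower and 6.44% higher of all tested genes. Cdk4 (78.9 to 34.0 FPKM), Ccnb1 (124 to 55.0) and Pcna (927 to 442) fell most in DP1 by the authors' deposited table, and the Pcna call was lost once the length trend was removed (q = 0.129). The retinoblastoma gene Rb1 was the 1 that rose (22.1 to 39.6 FPKM, q = 0.0390 by the authors' deposited table), and its call too was lost without the length trend (q = 0.0915). In DP2 Ccne2 (33.3 to 7.65 FPKM), Ccnd2 (2.30 to 0.683) and Ccnb1 (47.7 to 21.6) fell most by the authors' deposited table, and Ccnd3, a D-type cyclin gene, rose from 104 to 233.

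**Figure D5:**
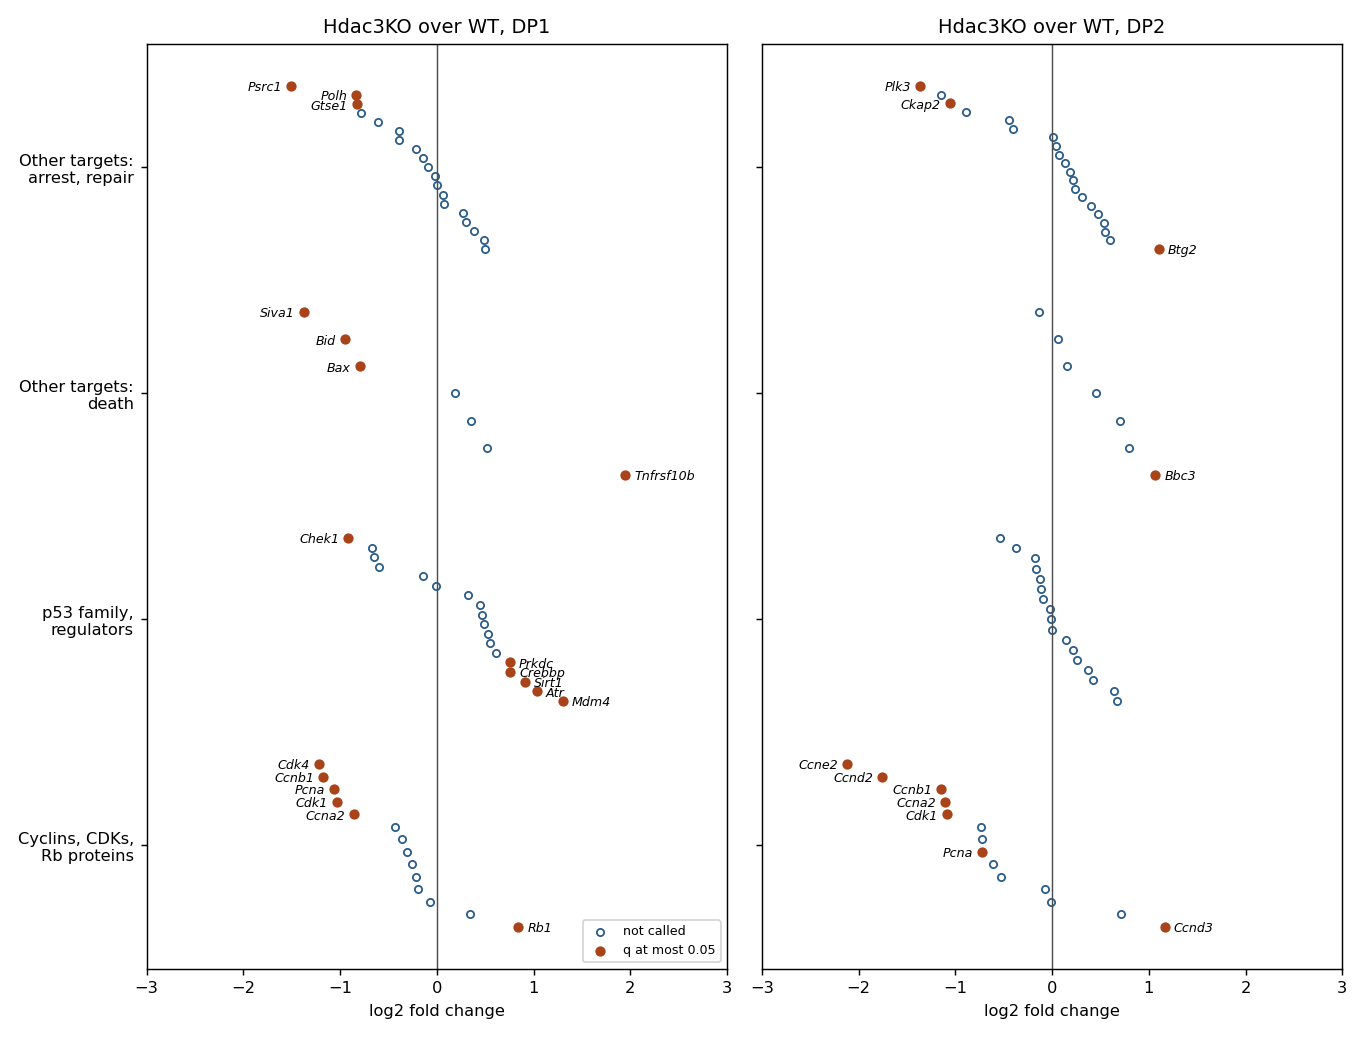
Log2 fold change between Hdac3KO and WT in DP1 and in DP2 of the tested genes of 4 lists (rows; vertical order within a row is by change), with filled, named points called at a q of 0.05 and open points not called. In the p53 family and regulators, 5 filled points lie to the right and 1 to the left in DP1 and none is filled in DP2. Of all tested genes, 23.6% were called in DP1 and 10.8% in DP2.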

How the data were processed

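Per the submitters' processing notes, reads were handled with Trimmomatic 0.32, TopHat2 2.0.11 and Cuffdiff 2.1.1 on mm10; the gene annotation, settings and whether counting used strand are not given in the sources used here. The labels' protocols describe rRNA-depleted total RNA and a stranded SMARTer kit. The authors deposited 4 Cuffdiff tables, each with FPKM for 2 groups, scaled within that table only, and the authors' p-values and q-values. The same group's FPKM differed between tables by median ratios of 0.908 to 1.14, so values were tested within a table only. Depth per library is unknown, and low FPKM gave no whole reads (the commonest ratio under 0.3 FPKM was shared by 54 of 3931 genes for genotype in DP1).

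The log2 fold change is that of the authors' FPKM values, without a pseudocount, and the SE is the size of the change over the normal quantile of the deposited p. It is an upper bound where that p is at its smallest, 5e-05. The difference between stages is the difference of the 2 genotype changes divided by its SE (both SEs combined in quadrature), with a two-sided normal p and Benjamini-Hochberg adjustment; its code was tested on simulated data. Centring used the median over genes at 10 FPKM or more in each group, and the length trend was a lowess curve (fraction 0.3) over the same genes, for the 90.2% of tested genes with a GENCODE M21 length. Python 3.11.15, scipy 1.17.1 and statsmodels 0.14.6 were used. The members and lists were chosen with earlier results of these data known. Named genes are the members, up to 3 called genes per list and direction with the largest genotype change, Trp53, and for each called member the 2 genes nearest in its 4 log2 changes. Fas, Cdkn1b and Ccng2 were added after their values were seen.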

Additional observations from a re-analysis of the deposited data

Results flagged for a closer look

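The genotype change of Atr, a checkpoint kinase gene among the regulators of p53, differed between the stages. It was 1.04 in DP1 and -0.37 in DP2, a difference of -1.41 ± 0.40 (normal test, q = 0.0374 over 10144 genes). Worked out from the stage tables instead, it was -1.36 (q = 0.0400). That is the same contrast of the same libraries, scaled separately, so it is no independent check. With the length trend removed the difference was -1.15 (q = 0.14), and with the SE multiplied by 1.5 the q was 0.985. Epcam and Cd8b1, whose differences were also called, had the same q of 0.985 with that SE, so this value says little about Atr. The longest Atr transcript has 8102 bases, and fold changes for genotype in DP1 and for stage in WT followed length. The part of that trend in the Atr value was not tested beyond this.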

How the results depend on the processing

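The number of members called for genotype in DP1 went from 6 to 3 with the length trend removed and otherwise stayed between 4 and 6. For stage in WT it went from 1 to 2 at a q of 0.10, where Ei24 joined Perp. The other counts of called members stayed within 1.5 times under every alternative, and no member passed the test of the difference between stages under any of them. For that test the stage tables restate the same contrast from the same libraries. With the SE multiplied by 1.5, member q-values were 0.985 to 0.995, and Atr, called before, also had 0.985. These settings therefore add little. Signs turned only for values that were not called: with centring, Aen for genotype in DP1 (0.0890), Mdm2 for stage in WT (0.16) and the stage differences of Trp53inp1 (-0.0717) and Mdm2 (-0.14); with the length trend removed, Mdm2 for stage in WT (0.18) and in Hdac3KO (-0.0076) and the differences of Mdm2 (-0.17), Zmat3 (0.0721) and Ei24 (-0.11); and by the stage tables, the difference of Aen (0.0129). No paired analysis was possible because each group has 1 deposited value, and for the same reason no library could be left out.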

Other observations

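Of 13 tested relatives (paralogs) of the members in DP1, 1 was higher, Mdm4, and 3 were lower without Hdac3, beside 10.7% higher and 12.9% lower of all tested genes. Zmat2, a relative of Zmat3, fell from 45.7 to 22.3 FPKM by the authors' deposited table (-1.04 ± 0.27, q = 0.00154) where Zmat3 rose, and Cdkn1c, a relative of Cdkn1a, fell to 0.795 from 1.97 (-1.31 ± 0.46, q = 0.0256). The third was Polh. Relative to the median gene 3 were higher and 3 lower. With the length trend removed 1 was higher and 2 lower, and the Cdkn1c call was lost (q = 0.178). In DP2, 0 of 12 were called at Cuffdiff's q, beside 10.8% of all tested genes, and 2 had an unadjusted p under 0.05. Cdkn1b, which encodes the cell cycle inhibitor p27, was far more abundant than Cdkn1a, at 53.6 and 80.3 FPKM in WT and Hdac3KO DP1 in the authors' deposited table (q = 0.0739). Ccng2, the cyclin G2 gene, was at 59.6 and 78.2 FPKM in the same deposited table of the authors (q = 0.255).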
